A study of Danio rerio with 3 samples.

Results

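The genes described here are 46 zebrafish genes of neural progenitors, neurons, synapses and glia. They were chosen by name, with earlier results of these data known, so their shares are not independent of the data. They comprise 10 genes of progenitors and neurogenesis, 19 of neurons, 12 of synapses and transmitter synthesis, and 5 of glia. Of the 46, 36 had at least 1 probe named in the array's probe table and 30 had a ratio in all 3 samples, out of 5904 genes with such a ratio. The other 16 are accounted for below, and counts over the 30 measured genes are not counts over all 46.

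Neurons arise from dividing progenitors that carry SoxB1 factors such as Sox2 and Sox3. Proneural basic helix-loop-helix factors, among them Neurog1, commit progenitors to a neuronal fate, after which RNA-binding Elav proteins, neuronal tubulins, stathmins and neurofilaments appear as axons grow. Release of transmitter then needs the SNARE proteins Snap25 and Vamp2 with the calcium sensor synaptotagmin, while radial glia carry Gfap and Fabp7 and oligodendrocyte precursors need Olig2. In the zebrafish embryo the first neurons are already present on the first day, and neurogenesis, axon growth and synapse formation go on together through the second day.

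Whole embryos aged 24 hpf (hours post fertilization) were placed in 71.9 mg/L Aroclor 1254, a commercial mixture of polychlorinated biphenyls, and after 24 h, at 48 hpf, were compared with control embryos kept in fish medium at 28.5 °C. No strain or mutation is named in the labels. Each of 3 biological replicates is a two-colour array measurement, with dye swaps in the design, that sets exposed against control embryos of the same age, so there is 1 group of 3 ratios, each already a contrast. Whether replicates came from separate clutches is not stated in the labels, so the spread between samples may be partly technical.

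Values are the deposited log ratios, read as log2. Which condition forms the numerator is unstated, so "positive" and "negative" describe the deposited sign and no direction of exposure is given. For orientation, cyp1a, a monooxygenase gene whose induction is the standard marker of dioxin-like biphenyls, stood at 7.07, 8.61 and 8.02 in replicates 1, 2 and 3 (7.90 ± 0.78, SD, n = 3; adjusted p = 0.00086 in limma), and of the 5904 genes it alone passed an adjusted p of 0.05. The pairing of rows with genes follows a renumbering of the array grid that was inferred from the values, under which probes of 1 gene gave a Pearson r of 0.76 over 2169 pairs of probes, against 0.0255 over 440 pairs with the numbers as given. Without cyp1a and the genes described here, r was 0.757 over 2139 pairs. Over all genes, replicate 2 had the widest ratios (SD 0.922, against 0.797 in replicate 1 and 0.519 in replicate 3), and its correlation with the others was 0.289 and 0.301, below the 0.469 between replicates 1 and 3.

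Where a probe existed, the neural genes chosen here were well represented. Of their 66 probes, 77.3% had a value in at least 1 sample, compared with 45.4% of the 21060 probes with a gene name. All 18 progenitor probes and all 4 glial probes had a value in every sample. Among neuronal genes it was 17 of 26 probes, and among synaptic genes 9 of 18. None of the 4 probes of gad1b, which encodes the enzyme that makes the inhibitory transmitter GABA, had a value. The same held for the 4 probes of atp1a3b and the 2 of atp1a3a, which encode catalytic subunits of the neuronal sodium pump, and for the single probes of the adhesion molecule genes cntn2 and ncam1a. The rule that left a probe without a value is unknown here, so these are genes without a measurement and not genes measured as low. No probe was named for nes, gap43, stmn2b, tuba1a, sv2a, stxbp1a, slc17a6b, th, mbpa or plp1a, which include the 2 myelin genes.

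No neural gene passed the test over all genes. At an adjusted p of 0.05 in limma the count was 0 of 30, where 0.0169% of all genes passed, and their adjusted p ran from 0.193 to 0.97. At an unadjusted p of 0.05, 6 were negative (8.43% of all genes) and 1 was positive (7.67% of all genes). The negative ones were fabp7a, tubb5, inab, tuba1c, stmn2a and snap25b, and the positive one was vamp2. These counts depended on the test, the probes and the samples. With the ordinary statistic 1 was negative and 0 positive, with array weights 3 and 2, and with complete probes only 5 and 1. Without replicate 1 the counts were 5 and 0, and without replicate 3 they were 4 and 0. The shares of all genes at this unadjusted p are not given here for these runs. A change in these counts may therefore be one that all genes share. Negative ratios in all 3 samples were found for 8 of the 30, or 26.7%, close to the 23.1% of all genes. Positive ratios in all 3 samples were found for 2, or 6.67%, where all genes gave 19.7%. A ratio of at least 1.5-fold in all samples was seen for 1 gene on the negative side (fabp7a; 2.71% of all genes) and for 0 on the positive side (2.63%). These shares differ in size from those of all genes, but no test of the difference over the list was made.

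**Figure D1:**
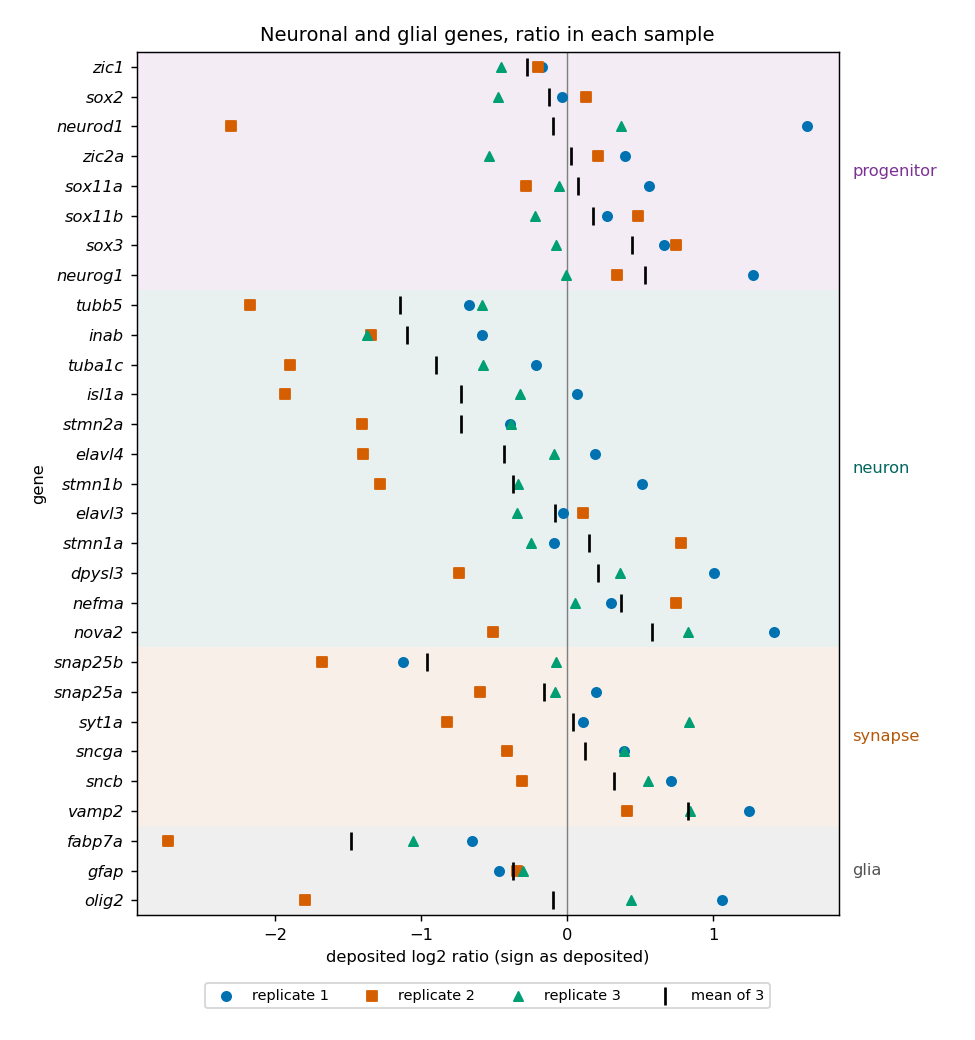
Deposited log2 ratio (horizontal axis) of 29 of the 30 measured neural genes (vertical axis, grouped by role and ordered by mean), with 1 symbol per replicate and a bar at the mean of 3. Replicate 2 lies furthest to the left for 18 genes, most of them neuronal or synaptic, while most progenitor genes lie within 1 log2 unit of 0 in all samples.

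The progenitor genes had a median close to 0 over the 3 samples, but it differed between them. Their median over 9 measured genes was 0.07, against -0.03 over all genes, and their means ran from -0.27 to 0.54. In replicates 1, 2 and 3 the median was 0.56, 0.21 and -0.10. None reached an unadjusted p of 0.05 (lowest adjusted p = 0.421, limma). The SoxB1 factor sox3, which keeps neural progenitors undifferentiated, stood at 0.67, 0.75 and -0.07 in replicates 1, 2 and 3. That is 0.45 ± 0.45 (SD, n = 3; 95% interval -0.21 to 1.102), positive in 2 of 3 samples. Its 6 probes all had a positive mean, between 0.21 and 0.68, and each was positive in replicates 1 and 2. The related gene sox2, which serves the same role, was at -0.03, 0.13 and -0.47, and so was lower than the probe average of sox3 in all 3 samples, by 0.57 ± 0.16 on average (SD, n = 3). By probe the order did not hold in replicate 3, where a sox3 probe at -0.54 lay below the only sox2 probe.

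The proneural gene neurog1 was on the positive side in replicates 1 and 2. For this gene, which specifies sensory and other early neurons, the ratios were 1.27, 0.34 and -0.01 (mean 0.54 ± 0.66, SD, n = 3). The replicates spread more widely than the mean itself, and the gene was not separated from 0. The gene neurod1, whose factor acts later and drives differentiation of committed neurons, had the widest spread of all 30 genes: it was at 1.64 in replicate 1, -2.30 in replicate 2 and 0.37 in replicate 3. With a mean of -0.10 and a 95% interval from -1.73 to 1.53, its sign was not settled by these samples. Without replicate 2 its mean was 1.00.

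The SoxC genes sox11a and sox11b, whose factors act as progenitors turn into neurons, did not move apart beyond their spread. The first stood at 0.56, -0.28 and -0.05 and the second at 0.27, 0.48 and -0.22. Their difference averaged -0.10 ± 0.58 (sox11a minus sox11b, SD, n = 3) and changed sign between samples. The zinc finger genes zic1 and zic2a, which pattern the dorsal neural tube, were also near 0. The ratios of zic1 were -0.17, -0.20 and -0.45, the only progenitor gene of 1 sign throughout, although 1 of its 2 probes was positive in replicate 1 (0.42). Those of zic2a were 0.39, 0.21 and -0.53.

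The neuronal genes had a negative median, which came mainly from replicate 2. Over 12 measured genes the median was -0.40. In replicates 1, 2 and 3 it was 0.02, -1.31 and -0.33. In replicate 2, 7 of the 12 were at or below -1, a level reached by 11.7% of all genes in that sample. Those 7 were tubb5, isl1a, tuba1c, stmn2a, elavl4, inab and stmn1b. In replicate 1 no neuronal gene was that low (9.13% of all genes), and in replicate 3 only inab was (2.88%). Without replicate 2 the median of the group was -0.15. In whole embryos, a difference in the number of neurons and one in the RNA of each neuron cannot be told apart, whichever way a ratio points.

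Of these 7, tubb5, tuba1c and inab encode cytoskeletal proteins, and stmn2a and stmn1b encode regulators of microtubules. For tubb5 (NCBI Gene 386701), which encodes a beta tubulin of microtubules, the ratios were -0.67, -2.17 and -0.58, a mean of -1.14 ± 0.89 (SD, n = 3; 95% interval -2.02 to -0.26; adjusted p = 0.23, limma). Its 2 probes gave -2.17 each in replicate 2, and a technical part in that value was not tested. Without replicate 2 its mean was -0.63. The alpha tubulin gene tuba1c stood at -0.21, -1.90 and -0.58 (mean -0.90 ± 0.89, SD, n = 3; adjusted p = 0.305, limma), and at -0.40 without replicate 2. Tubulin genes are a family of closely similar sequences, so probes of different members can share signal.

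The intermediate filament genes inab and nefma had means of opposite sign, but that of nefma was not separated from 0. The gene inab (NCBI Gene 30230), which encodes an internexin of neuronal intermediate filaments, had ratios of -0.58, -1.34 and -1.37, negative in 3 of 3 samples. Its mean of -1.099 ± 0.45 (SD, n = 3; 95% interval -1.75 to -0.44; adjusted p = 0.193, limma) had the smallest p of the 30 genes, and it was -0.98 without replicate 2. The gene nefma, for the medium neurofilament subunit, stood at 0.30, 0.75 and 0.05, the only neuronal gene positive in all samples. Its mean was 0.37 ± 0.35 (SD, n = 3; 95% interval -0.25 to 0.99; adjusted p = 0.491, limma). In 3 of 3 samples nefma was above inab, by 1.47 ± 0.61 (SD, n = 3). The pair was listed because the proteins are related, and with 3 samples an exact sign-flip test of such a difference cannot go below p = 0.25 (two-sided), so no p is given for pairs. Both members were measured for 8 of the 12 pairs listed.

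Among the stathmins, which destabilize microtubules in growing axons, the gene stmn2a was at -0.39, -1.41 and -0.38. Its mean was -0.73 ± 0.59 (SD, n = 3; adjusted p = 0.307, limma), and -0.39 without replicate 2. The gene stmn1b stood at 0.51, -1.28 and -0.34 and its paralog stmn1a at -0.09, 0.78 and -0.25. The difference of stmn1a from stmn1b was 2.06 in replicate 2, against -0.60 and 0.09 in replicates 1 and 3.

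Replicate 2 also separated the Elav genes, RNA-binding proteins of young neurons. The pan-neuronal marker elavl3 was at -0.03, 0.11 and -0.34, with both of its probes between -0.51 and 0.26 in every sample. This gene marks nearly all early neurons, and its mean of -0.09 had a 95% interval from -0.67 to 0.50. Its relative elavl4 stood at 0.19, -1.40 and -0.09. The 3 elavl4 probes, which carry 1 accession, disagreed: their means were -1.17, -0.61 and 0.48, and the first of them was negative in 3 of 3 samples (adjusted p = 0.151 over all rows, limma). All 3 probes were lowest in replicate 2. Tested as single rows, 0 of the 48 complete neural probes passed, where 0.0686% of the 10200 complete rows did.

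Of the other neuronal genes, isl1a, whose LIM homeodomain factor specifies motor and sensory neurons, was at 0.07, -1.93 and -0.32, the widest spread of the group. A second isl1a probe had a value in replicate 1 only, and with the probe measured in all samples alone the mean was -0.58 in place of -0.73. The gene dpysl3, for a collapsin response mediator in growth cones, had a mean of 0.21 ± 0.88, and nova2, for a neuronal splicing regulator, of 0.58 ± 0.99 (SD, n = 3 each). Both were positive in replicates 1 and 3 and negative in replicate 2.

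**Figure D2:**
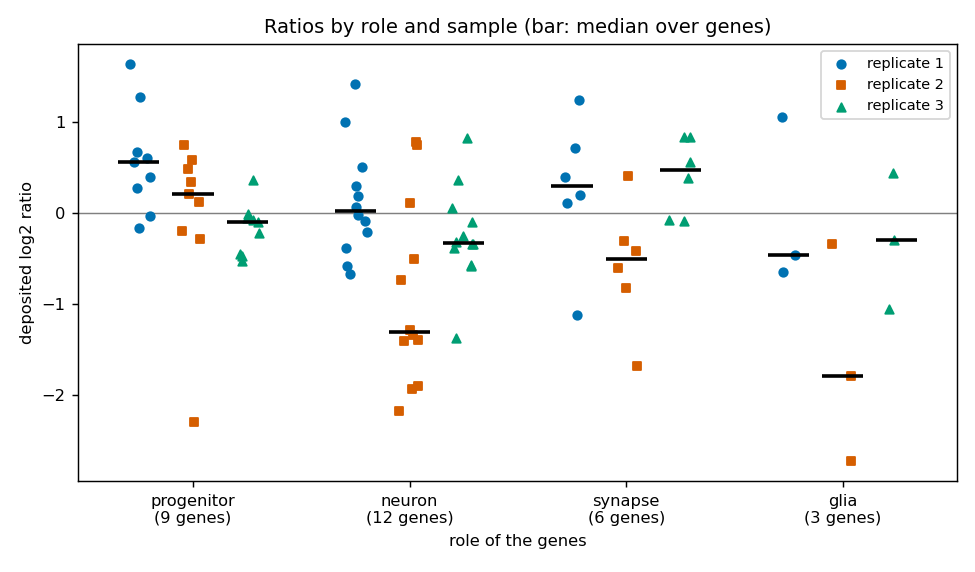
Deposited log2 ratio (vertical axis) of each measured gene by role (horizontal axis) and replicate, with a bar at the median over the genes. In replicate 2 the medians are 0.21 for progenitor, -1.31 for neuron, -0.51 for synapse and -1.80 for glia genes, and in replicate 3 all 4 medians lie between -0.33 and 0.47.

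Among synaptic genes the means of the SNARE partners vamp2 and snap25b differed in sign, but the complete snap25b probe had no common sign. The gene vamp2 (NCBI Gene 336281), for the SNARE protein of synaptic vesicles, was positive in all samples, at 1.24, 0.41 and 0.84. Its mean log2 ratio was 0.83 ± 0.42 (SD, n = 3), with a 95% interval from 0.19 to 1.47 and an adjusted p of 0.232 in limma. As a fold the mean was 1.78. The 2 vamp2 probes gave mean log2 ratios of 0.83 and 0.84, and without replicate 2 the mean was 1.04. For snap25b (NCBI Gene 30711), which encodes a SNARE protein of the presynaptic membrane, the ratios were -1.12, -1.68 and -0.08. That mean of -0.96 ± 0.81 (SD, n = 3; adjusted p = 0.259, limma) mixed probes: a probe at -2.35 had a value in replicate 1 only. The 1 probe measured in every sample stood at 0.11, -1.68 and -0.08, a mean of -0.55 with no common sign and an adjusted p of 0.489, so the count of genes negative throughout was 7 without the partly measured probes. The paralog snap25a was at 0.20, -0.60 and -0.08, and over the complete probes the paralogs differed mainly in replicate 2.

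The remaining synaptic genes were positive or near 0 in replicates 1 and 3 and negative in replicate 2. The calcium sensor gene syt1a stood at 0.11, -0.83 and 0.84, the largest spread among synaptic genes. The synuclein genes sncb and sncga, for small presynaptic proteins, followed each other. They were at 0.71, -0.31 and 0.56 for sncb and at 0.39, -0.42 and 0.39 for sncga, with sncb above sncga in 3 of 3 samples by 0.20 ± 0.11 (SD, n = 3). Of the 2 sncb probes, however, 1 had a mean of 0.76 and the other of -0.12, and the sncga probes had means of -0.03 and 0.27. By probe the order did not hold. The sncb probe with the lower mean was below the sncga probe with the higher mean in 3 of 3 samples. For gad2, a GABA-synthesizing enzyme, the single probe had values of 0.49 in replicate 1 and 1.16 in replicate 3. The mean, 0.83, had an adjusted p of 0.299 in the limma fit of 6781 genes with at least 2 samples.

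The median over the 6 measured synaptic genes was 0.08, and 0.30, -0.51 and 0.47 in replicates 1, 2 and 3. All 6 had their lowest value in replicate 2, which was the lowest sample for 37.4% of all genes. The median was 0.43 without replicate 2.

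The glial genes were few and unlike each other. The gene fabp7a (NCBI Gene 58128), for the brain fatty acid binding protein of radial glia, was the most negative of all 30, at -0.65, -2.73 and -1.06. Its mean was -1.48 ± 1.103 (SD, n = 3; 95% interval -2.49 to -0.47; adjusted p = 0.206, limma), and -0.85 without replicate 2. The gene gfap, for the glial intermediate filament, was at -0.47, -0.35 and -0.30, the closest agreement between samples among the 30 (-0.37 ± 0.08, SD, n = 3; adjusted p = 0.451, limma). That agreement came from averaging 2 probes of different accessions: 1 was negative throughout (mean -0.77) and the other lay near 0 (mean 0.03). The gene olig2, for the factor that specifies oligodendrocyte precursors and motor neurons, was at 1.06, -1.80 and 0.44, and its mean without replicate 2 was 0.75. Its order of samples was that of neurod1, but also that of isl1a, elavl4, stmn1b, sncb, vamp2 and further genes described here.

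**Figure D3:**
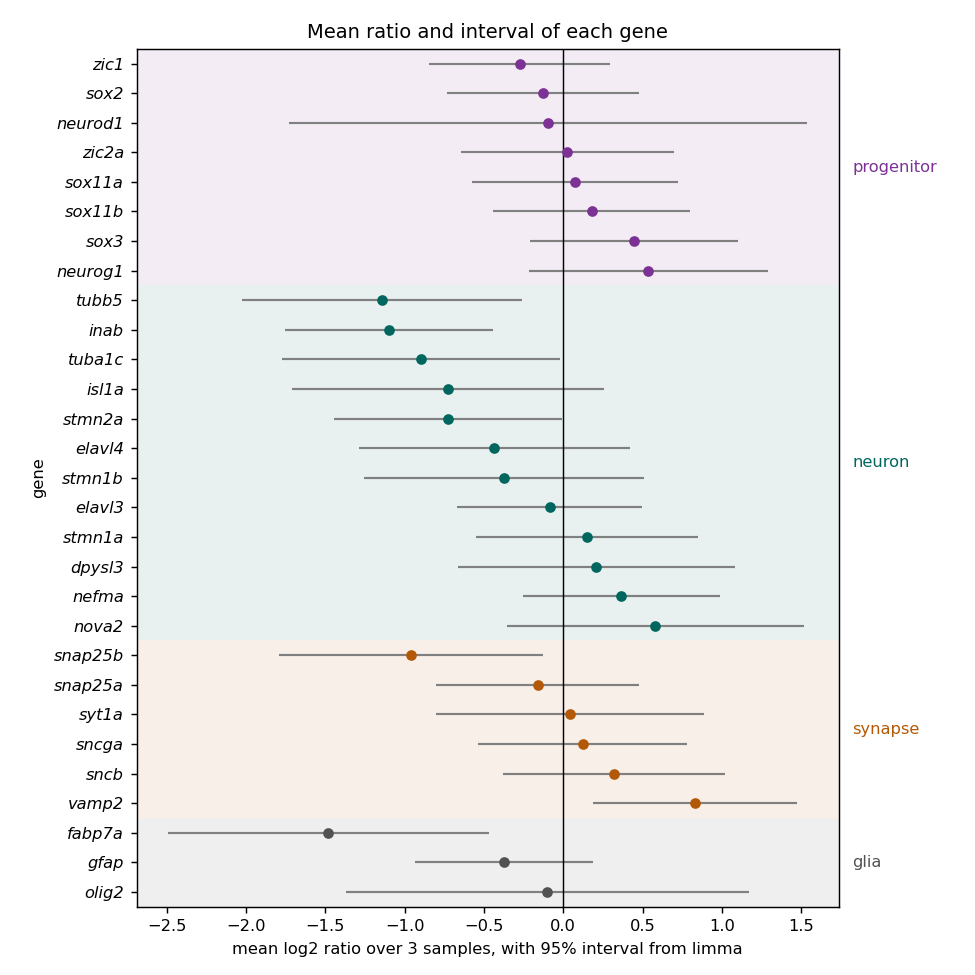
Mean log2 ratio over 3 samples (horizontal axis) of 29 of the 30 measured genes (vertical axis, grouped by role), with the 95% interval from limma, not adjusted for the number of genes. The intervals of 7 genes leave out 0, and those of 17 reach beyond a 2-fold ratio on at least 1 side. The 7 include snap25b, whose mean holds a probe with a value in replicate 1 only.

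The precision was limited by having 3 samples. The interval of 17 of the 30 genes reached beyond 2-fold in at least 1 direction, so for these a 2-fold ratio between exposed and control embryos was within the interval. Probes gave a second view of precision. Genes with 1 probe lack it, among them fabp7a, inab, tuba1c, stmn2a, neurod1 and olig2. Of the 13 genes with at least 2 complete probes, 8 had probes whose means shared a sign. The means of the vamp2 probes were 0.01 apart, those of tubb5 0.17, those of the 6 sox3 probes at most 0.47, and those of elavl4 up to 1.65.

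**Figure D4:**
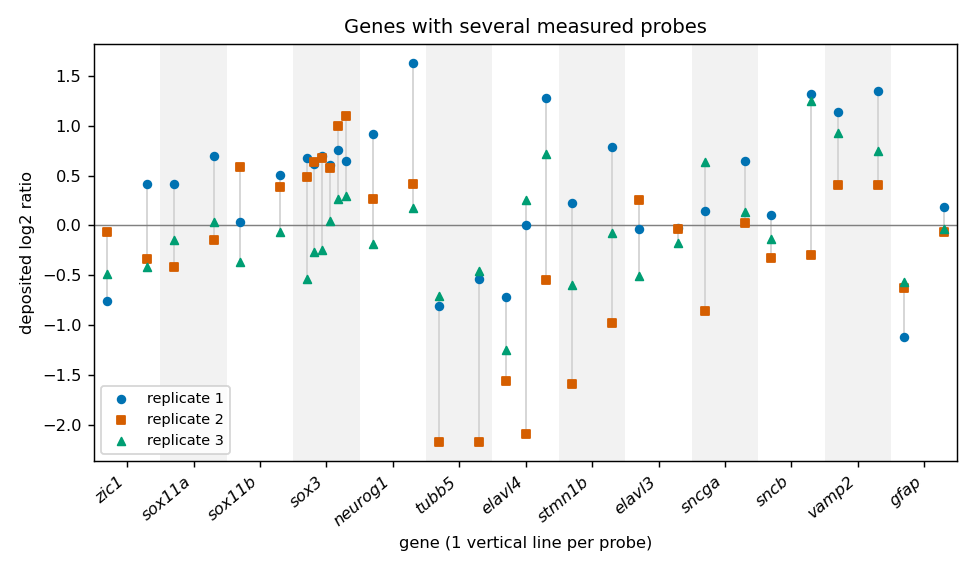
Deposited log2 ratio (vertical axis) for each complete probe of the 13 genes with at least 2 such probes (horizontal axis), with 1 vertical line per probe and 1 symbol per replicate. The probes of tubb5 and of vamp2 lie close together in each sample, the 6 sox3 probes are all positive in replicates 1 and 2 but of both signs in replicate 3, and elavl4, sncb and gfap are among the genes that hold probes with means of opposite sign.

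Compared by role, progenitor genes lay above neuronal genes in every sample, by 0.54, 1.53 and 0.23 between the medians in replicates 1, 2 and 3 (0.77 ± 0.68, SD, n = 3). Synaptic genes also lay above neuronal genes, by 0.27, 0.81 and 0.80, but this order was not kept by the further genes described next, where in replicate 2 the synaptic median was the lower (-1.45 against -1.003). Progenitor and synaptic genes had no constant order. These are differences between medians of chosen genes and carry no p.

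Further neural genes, listed by role with earlier results of these data known, held 207 names, of which 80 were measured in all 3 samples. None passed the test over all genes. At an unadjusted p of 0.05, 7 were negative and 2 positive, together 11.2% of the 80, below the sum of the 8.43% and 7.67% of all genes. By role they fell unevenly. The negative ones were 5 of 28 neuronal genes (17.9%) and 2 of 12 synaptic genes (16.7%), where 8.43% of all genes were negative. The positive ones were 2 of 25 progenitor genes (8%, against 7.67%), and 0 of 15 glial genes were called. No test of these shares was made. The 28 further neuronal genes had medians of -0.08, -1.003 and -0.09 in replicates 1, 2 and 3. In replicate 2, 25 of them were negative, against 51.2% of all genes. Of the 28, 11 were negative in all samples, or 39.3% where all genes gave 23.1%, and 1 was positive, or 3.57% where all genes gave 19.7%. Those with the smallest p of the list were the collapsin response mediator genes dpysl5a (-1.22 ± 0.93, adjusted p = 0.221), dpysl4 (-0.97 ± 0.75, adjusted p = 0.247) and dpysl2b (-0.70 ± 0.34, adjusted p = 0.263; SD, n = 3 each, limma), all negative in 3 of 3 samples. Other genes of this family did not reach such values. The mean of dpysl5b, also negative throughout, was -0.19 ± 0.18, and that of dpysl3, given above, was 0.21 ± 0.88 with mixed sign (SD, n = 3 each).

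The 12 further synaptic genes, from 72 listed and 48 on the array, had medians of -0.03, -1.45 and 0.08. Of the 79 probes of the listed genes, 26.6% had a value in at least 1 sample, against 45.4% of all named probes. The synapsin gene syn2a, for a phosphoprotein that tethers synaptic vesicles, was negative throughout at -1.36, -2.13 and -1.54. Its mean of -1.68 ± 0.40 (SD, n = 3; adjusted p = 0.116, limma) had the smallest p of the further neural genes. The vesicular acetylcholine transporter gene slc18a3a stood at -0.67 ± 0.28 (SD, n = 3; adjusted p = 0.264, limma). Neither passed.

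The 25 further progenitor genes had medians of 0.60, 0.03 and 0.01. In all samples 6 were positive, a share of 24% near the 19.7% of all genes, and 1 was negative, or 4% against 23.1%. The SoxB2 gene sox21a stood at 1.04, 1.23 and 0.82 (mean 1.03 ± 0.21, SD, n = 3; adjusted p = 0.177, limma). The SoxB1 gene sox19a followed at 0.70 ± 0.37 (SD, n = 3; adjusted p = 0.268, limma). Both were picked as the smallest p of the list. Of its other sox genes, sox19b was positive throughout (mean 0.59), while sox21b (mean 0.01) and sox1a (mean -0.10) were of mixed sign. The 15 further glial genes had medians of 0.17, 0.50 and -0.35, so the low glial values of replicate 2 were not repeated in them.

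Replicate 2 stood apart in epidermal and red cell genes too, but not in skeletal muscle genes. In that sample the median was 1.19 over 16 epidermal genes (14 of them positive, against 48.8% of all genes in that sample), 1.71 over 11 red cell genes (all 11 positive) and -0.14 over 18 skeletal muscle genes. In replicates 1 and 3 the epidermal medians were 0.09 and -0.14, the red cell medians 0.60 and -0.25, and the muscle medians -0.16 and 0.14. The median over all genes was between -0.05 and -0.01 in each sample. The part of these shifts in the neuronal values of replicate 2 was not tested.

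**Figure D5:**
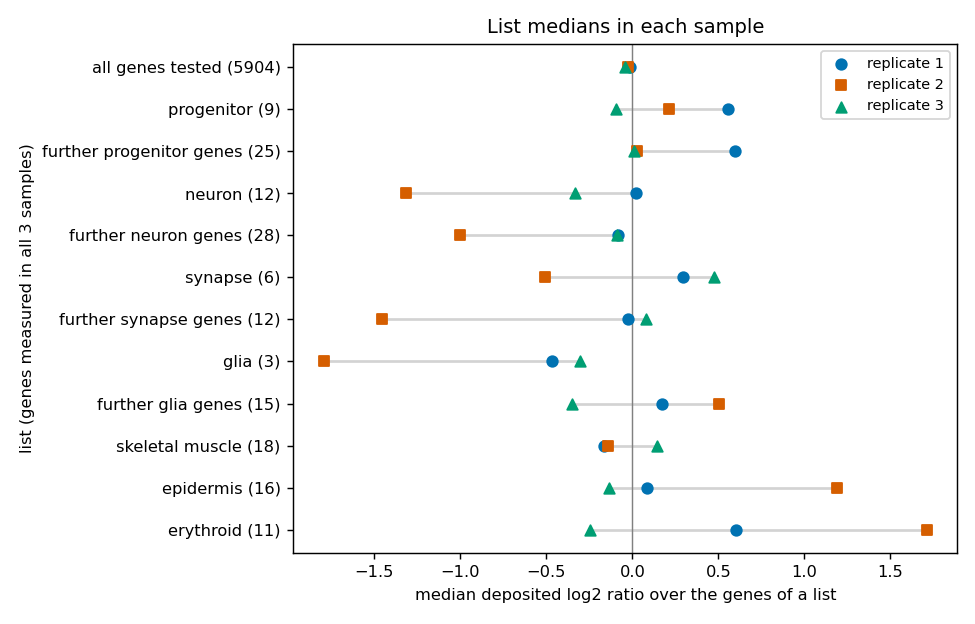
Median deposited log2 ratio (horizontal axis) over the measured genes of each list (vertical axis, number of genes in brackets), with 1 symbol per replicate. In replicate 2 the neuron and synapse lists lie between -1.45 and -0.51 and the epidermis and erythroid lists at 1.19 and 1.71, while all genes lie near 0.

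With replicate 2 left out, 9 neural genes were positive in both remaining samples (30.9% of all genes) and 11 negative (35.7% of all genes), again 0 passed the test over all genes, and 5 positive and 3 negative genes had an unadjusted p under 0.05 in limma (7.76% and 9.65% of all genes). Across genes, which are not independent replicates, the correlation of the 30 neural genes was 0.689 between replicates 1 and 3, and 0.282 and 0.237 with replicate 2.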

How the data were processed

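Amplified RNA of exposed and of control whole embryos was compared in 3 samples on arrays with the dyes Cy3 and Cy5, per the labels' protocols. The authors deposited 1 log ratio, read here as log2, per row and sample for 45219 rows. The base was inferred from the range of the values, and a natural log could not be told apart. Details of background correction, normalization, dye-swap handling and the numerator were not given in the sources used here. Array signal levels were not used, so precision is limited by the number of samples. A value was present for 10487 to 12735 rows per sample, and for 10200 in all 3.

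Rows were named by grid position on 170 columns of 266 spots. The measured rows of a gene were averaged per sample, and 5904 genes with 3 values were fitted with limma 3.58.1 in R 4.3.3 (intercept only, against 0, two-sided, Benjamini-Hochberg over all genes). Residual degrees of freedom were 2, with 4.58 added by the prior. The fit was tested on simulated data. The genes, roles and lists were chosen with earlier results of these data known. Sample values are given for genes with 1 sign throughout, with an unadjusted p under 0.05, in a measured paralog pair or with the widest spread of their role. Beyond that rule they are given for neurog1 and for the partly measured gad2. 1 measured gene enters the fit and the counts but is not reported here by name. Further neural genes were taken from the 4 smallest p of each list, and dpysl5b, sox21b and sox1a were added as relatives of these.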

Additional observations from a re-analysis of the deposited data

How the results depend on the processing

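No neural gene passed under any alternative run: median centring, equal scaling, quantile normalization, each replicate left out, medians over probes, complete probes only, a filter on small ratios, the ordinary statistic, array weights, turned signs, the row numbers as given, a position trend removed and single rows. Over all genes, 40 passed after equal scaling, 28 after quantile normalization, 40 with array weights and 19 without replicate 3. With the ordinary statistic 0 of all genes passed, cyp1a included, so that run could not tell neural genes from the rest. Turned signs leave a two-sided p unchanged, so that run could not differ from the main fit. Leaving out 1 replicate gave 2 to 9 genes positive and 8 to 13 negative throughout, where fewer samples had to match. Over those settings the role medians ran from -0.16 to 0.30 (progenitor), -0.78 to -0.15 (neuron), -0.11 to 0.43 (synapse) and -0.68 to -0.38 (glia). The filter on small ratios moved the glial median to -0.77, by removing 1 gfap probe. Turning all signs exchanges the counts (8 positive, 2 negative) and the neuronal median (0.40) by construction, and was not run for single genes. With the row numbers as given, where 11 of the genes had values, 3 were negative throughout, the progenitor median was 0.57, and isl1a (0.74), nefma (-0.83) and snap25b (0.60) changed sign. Of 320 values of 26 named genes, 293 kept their sign and their side of the threshold and 27 changed sign. Much of this count was fixed by construction, so it does not measure robustness. The ordinary statistic leaves every mean as it is. Probe medians, complete probes and the filter on small ratios changed few means, and the row numbers as given read other rows. The means of neurod1, zic2a and olig2 were 0.042, -0.053 and 0.030 after equal scaling, 0.090, -0.063 and 0.026 after quantile normalization, and 0.37, -0.18 and 0.32 with array weights, which also gave -0.071 for stmn1a. With 1 replicate left out, means that changed sign ran from -0.97 to 1.004 (neurod1), -0.16 to 0.30 (zic2a), -0.17 to 0.25 (sox11a), -0.25 to 0.047 (sox2), -0.75 to 0.047 (elavl4), -0.81 to 0.085 (stmn1b), -0.18 to 0.042 (elavl3), -0.17 to 0.35 (stmn1a), -0.34 to 0.057 (snap25a), -0.36 to 0.47 (syt1a), -0.013 to 0.39 (sncga) and -0.68 to 0.75 (olig2). Beyond what construction shows, the cause was not tested. No paired analysis was possible because the samples form 1 group and each ratio already pairs exposed with control embryos.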

Other observations

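Photoreceptor genes, which belong to the retinal part of the nervous system, had few values: 13.9% of 36 probes, and 2 of the listed genes in all samples. The cone phosphodiesterase gene pde6c was negative throughout, at -1.35, -1.15 and -0.45 (adjusted p = 0.206, limma). The gene crx, for a homeodomain factor of developing photoreceptors, stood at 2.22 in replicate 1, -4.24 in replicate 2 and 0.32 in replicate 3, with an adjusted p of 0.81 in limma. This order of samples was common among the neural genes described above.

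Among epidermal genes epcam, for an adhesion molecule of epithelia, was positive in all samples at 0.95, 1.41 and 1.44 (adjusted p = 0.154, limma). The keratin gene krt5 was negative at -0.69, -0.75 and -0.73. In skeletal muscle the fast troponin T gene tnnt3b stood at -1.77, -1.62 and -1.15 (adjusted p = 0.124, limma) and the intermediate filament gene desma at 1.01, 2.06 and 0.83. None of these passed over all genes.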
